A study of Mus musculus with 10 samples.

Results

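The genes described here are 10 secreted signals of inflamed and growing tissue: Csf1, Csf2 and Csf3, which code for the colony stimulating factors M-CSF, GM-CSF and G-CSF, Il1a, Il1b and Il33 of the interleukin 1 family, Il6, Il11 and Lif of the interleukin 6 family, and Tslp. They were taken by symbol, by a rule that uses no measured value, though chosen with earlier results of these data known. All 10 were found among the 23924 usable genes of both tables. The tissue was pancreatic tumour transplanted orthotopically into athymic nude mice, hosts without a thymus and so with few T cells. Tumours of 2 models, named KrasT and MycT, were compared, with 3 KrasT and 2 MycT tumours from hosts given doxycycline and 3 KrasT and 2 MycT tumours from untreated hosts. Doxycycline was given in the drinking water at 100 ug/ml, with 2.5% sucrose, for 2 weeks (14 days), and untreated tumours are labelled with 0 days. Doxycycline switches tetracycline-controlled transgenes, and the series is about tumour cells that stay dormant once their oncogene is silent. The labels give neither the alleles nor the promoter behind each transgene, the number of tumour lines, the age of the hosts, nor any sucrose for untreated mice, so that effects of doxycycline or sucrose on their own cannot be told apart from those of the switch.

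Colony stimulating factors keep myeloid cells alive and make them multiply: M-CSF acts on macrophages, GM-CSF on granulocytes and macrophages, and G-CSF on neutrophils. Interleukin 1 alpha, interleukin 1 beta and interleukin 33 signal through receptors that share a co-receptor and switch on NF-kB. Interleukin 6, interleukin 11 and LIF each bind a receptor of their own and signal through the shared chain gp130 to STAT3, while TSLP acts through a receptor built with the interleukin 7 receptor. In pancreatic cancer these factors are known as signals passed between tumour cells, fibroblasts and myeloid cells.

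Values are FPKM, fragments relative to gene length and to all mapped fragments of the library, so levels of different genes can be compared per length. Each library is a whole piece of tumour, in which fewer cells of a type and less RNA per cell cannot be told apart, and the values do not say which cells made a cytokine. Read totals are not in the tables. From the steps between the lowest values, the libraries were estimated to hold 8400000 to 20400000 fragments, and counting error matters for members at such levels: Csf3 had an estimated 5, 1 and 0 fragments in the 3 KrasT doxycycline libraries. Over all tested genes, untreated KrasT replicate 1 was less like replicates 2 and 3 (Pearson r = 0.823 and 0.839) than these were like each other (r = 0.966). Untreated MycT replicate 2 stood apart in the members themselves: they summed to 2.60 FPKM there, against 56.3 FPKM in the other untreated MycT library, which carries no replicate number. Rn45s, the ribosomal RNA precursor, was 17239 FPKM in KrasT doxycycline replicate 1 and 20880 FPKM in MycT doxycycline replicate 2, against at most 2231 FPKM elsewhere.

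The first comparison asks how the cytokine genes of KrasT tumours differed after doxycycline. Csf1 rose and Il11 fell, with mean FPKM 6.38-fold higher and 5.95-fold lower after doxycycline. These 2 of the 8 members tested passed, 1 higher and 1 lower, where 8.46% of all genes were called higher and 8.25% lower. Each of these calls was kept in only 1 of the 6 fits that left out a library. Il6 and Lif were also lower in every doxycycline tumour than in any untreated tumour, without passing. Il33 and Il1b, abundant in both groups, overlapped between them. Changes are differences of mean log2(FPKM + 1), which understates changes of low genes, and a gene was called at a limma p, adjusted by the Benjamini-Hochberg method over all genes tested, under 0.05.

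**Figure D1:**
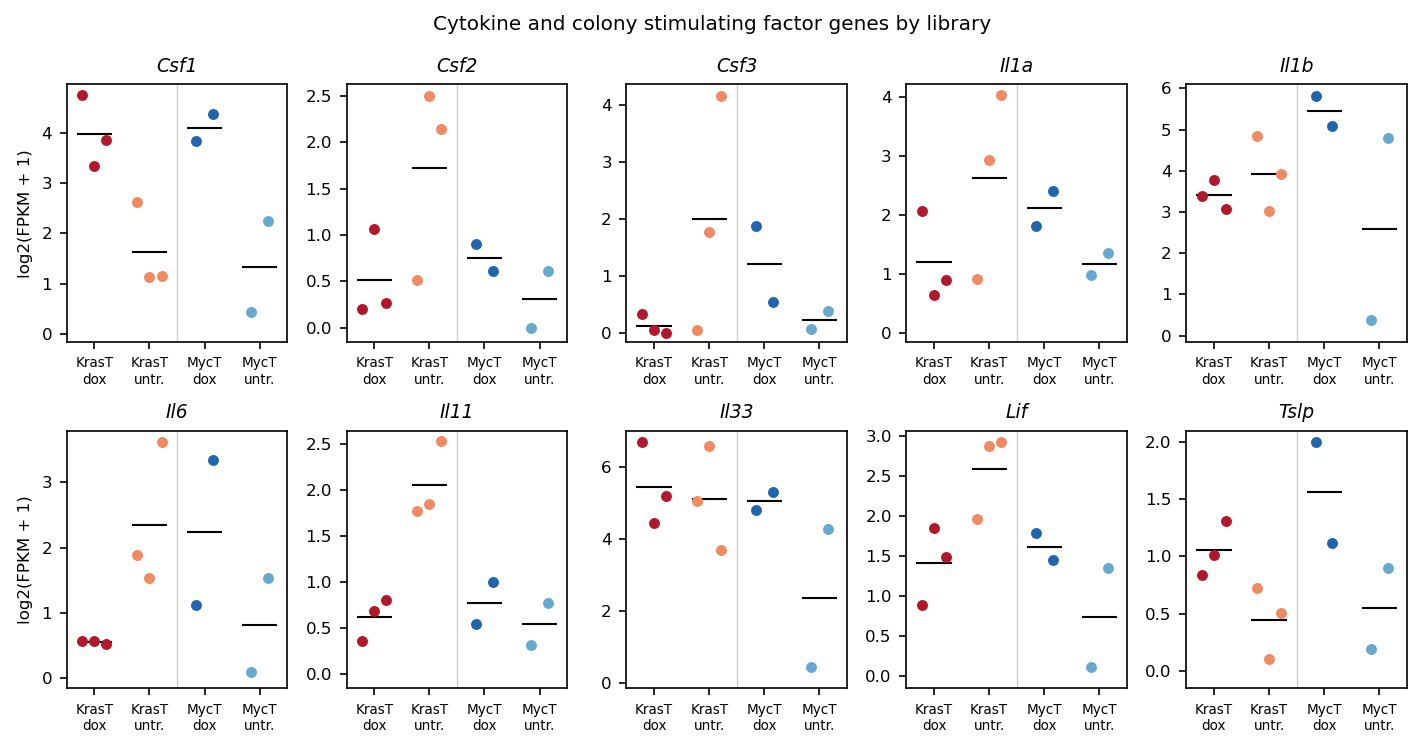
Level of each of the 10 genes in each library, as log2(FPKM + 1), 1 panel per gene with its own axis. Points are single tumours, horizontal lines are group means, and in each model the doxycycline tumours stand left of the untreated ones. In KrasT all 3 doxycycline tumours lie above the untreated tumours for Csf1 and Tslp and below them for Il6, Il11 and Lif.

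Csf1, the gene of the growth factor on which macrophages depend, was 25.7, 9.10 and 13.5 FPKM in the 3 KrasT doxycycline tumours, against 5.17, 1.19 and 1.21 FPKM in the 3 untreated tumours. Every doxycycline tumour was above every untreated tumour, and untreated replicate 1 was the highest of its group. The means were 16.1 ± 8.62 FPKM after doxycycline and 2.52 ± 2.29 FPKM without it (SD, n = 3 each), a 6.38-fold difference. The log2 change was 2.34 ± 0.54 (SE, limma adjusted p = 0.0325). The call was kept without untreated replicate 1, with an adjusted p of 0.00713. It was lost with no filter on low values (0.0539), and in the limma fits without doxycycline replicates 1, 2 or 3 (adjusted p = 0.0811, 0.0530 and 0.110) and without untreated replicates 2 or 3 (0.0991 and 0.113).

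Csf2, which codes for GM-CSF, was 0.147, 1.09 and 0.207 FPKM in KrasT doxycycline tumours, against 0.429, 4.64 and 3.41 FPKM in untreated tumours. The groups overlapped because untreated replicate 1 was low, and the doxycycline values rest on an estimated 2, 18 and 3 fragments. The log2 change was -1.21 ± 0.55 (SE, limma adjusted p = 0.173), and without untreated replicate 1 it was -1.81 (adjusted p = 0.0121). Of the 6 fits that left out a library Csf2 passed in that 1 alone, with changes from -1.81 to -0.82. Csf3, which codes for G-CSF, was 0.267, 0.0374 and 0 FPKM in KrasT doxycycline tumours, against 0.0443, 2.41 and 16.7 FPKM in untreated tumours. Its high values came from untreated replicates 2 and 3 alone, so it did not reach the filter of 1 FPKM in at least 3 libraries. In the fit without the filter its log2 change was -1.86 ± 0.98 (SE, limma adjusted p = 0.263).

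Il11, whose protein acts on stromal and epithelial cells, was 0.287, 0.612 and 0.745 FPKM in KrasT doxycycline tumours, against 2.40, 2.61 and 4.77 FPKM in untreated tumours. The groups did not overlap, and each untreated tumour was more than 3 times the highest doxycycline tumour. The means were 0.548 ± 0.236 FPKM after doxycycline and 3.26 ± 1.31 FPKM without it (SD, n = 3 each). The log2 change was -1.43 ± 0.30 (SE, limma adjusted p = 0.0252). Without untreated replicate 1 the adjusted p was 0.0126. The call was lost in the limma fits without doxycycline replicates 1, 2 or 3 (adjusted p = 0.0689, 0.0702 and 0.0936) and without untreated replicates 2 or 3 (0.0687 and 0.0799).

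Il6, a driver of STAT3 signalling and of acute phase responses, was 0.486, 0.486 and 0.438 FPKM in KrasT doxycycline tumours, against 2.71, 1.91 and 11.2 FPKM in untreated tumours. The 3 doxycycline tumours were nearly alike, and untreated replicate 3 was far above the other untreated tumours. The log2 change was -1.79 ± 0.53 (SE, limma adjusted p = 0.0620), and the exact permutation p was 0.1, the smallest that 3 against 3 libraries can give. It passed with a pseudocount of 0.1 in place of 1 (limma adjusted p = 0.0395), under quantile normalization (0.0419) and without untreated replicate 1 (0.0393). Of the 6 fits that left out a library Il6 passed in that 1 alone, with changes from -2.19 to -1.16. Lif, whose protein is known to pass from stroma to tumour cells in pancreatic cancer, was 0.861, 2.61 and 1.82 FPKM in KrasT doxycycline tumours, against 2.90, 6.37 and 6.60 FPKM in untreated tumours. The groups did not overlap, but doxycycline replicate 2 came close to untreated replicate 1. The log2 change of Lif was -1.18 ± 0.39 (SE, limma adjusted p = 0.0832), and it passed under quantile normalization (0.0468) and without untreated replicate 1 (0.0202). Lif too passed in only that 1 of the 6 fits that left out a library, with changes from -1.49 to -0.92.

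Il1a, whose protein is made in an active form and released by injured cells, was 3.21, 0.568 and 0.864 FPKM in KrasT doxycycline tumours, against 0.880, 6.64 and 15.5 FPKM in untreated tumours. The groups overlapped, with doxycycline replicate 1 high and untreated replicate 1 low for their groups, and the log2 change was -1.42 ± 0.81 (SE, limma adjusted p = 0.261). Without untreated replicate 1 it was -2.28 (adjusted p = 0.0226). Of the 6 fits that left out a library Il1a passed in that 1 alone, with changes from -2.28 to -0.72. Il1b, made mainly by myeloid cells and cut to its active form by caspase 1, was 9.40, 12.7 and 7.40 FPKM in KrasT doxycycline tumours, against 27.7, 7.15 and 14.2 FPKM in untreated tumours. Untreated replicate 2 was the lowest of all 6 libraries, so no order of the groups held across tumours (log2 change -0.52 ± 0.48 SE, limma adjusted p = 0.487).

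Il33, a nuclear alarm signal of epithelial, endothelial and fibroblast cells, was 102 FPKM in KrasT doxycycline replicate 1 and 20.9 and 35.6 FPKM in replicates 2 and 3, against 31.98, 94.2 and 11.9 FPKM in untreated tumours. It varied widely within both groups, and its log2 change was 0.34 ± 0.83 (SE, limma adjusted p = 0.807). The sign turned without doxycycline replicate 1 (-0.28) or untreated replicate 3 (-0.37). Tslp, an epithelial and stromal signal to dendritic cells and mast cells, was 0.790, 1.02 and 1.48 FPKM in KrasT doxycycline tumours, against 0.657, 0.0728 and 0.424 FPKM in untreated tumours. The groups did not overlap, at an estimated 13 to 34 fragments after doxycycline and 1 to 13 without it. Tslp did not reach the filter, and in the fit without it the log2 change was 0.61 ± 0.21 (SE, limma adjusted p = 0.117).

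Of the 10 members, 8 reached the filter in KrasT. Of these 8, 1 was called higher (12.5%) and 1 was called lower (12.5%), where 8.46% of all 12696 genes tested were called higher and 8.25% lower. Over all genes that is 1074 higher and 1047 lower, against 1150 and 701 under median-ratio scaling, which shifted the median log2 change of all genes to 0.01 from -0.10 and kept the calls of Csf1 (2.45, limma adjusted p = 0.0296) and Il11 (-1.36, 0.0294). Groups did not overlap in 1 of 8 on the higher side and 3 of 8 on the lower side, where the shares over all genes were 16.8% and 23.0%. The median log2 change of the 8 was -1.19, against -0.10 over all genes. A gene can reach the filter through the group in which it is high, as Il11 did, so these counts are a description. Without untreated replicate 1, which among the untreated tumours lay nearest the doxycycline tumours in Csf1, Csf2, Csf3, Il1a, Il11 and Lif, 1 of 8 was called higher and 5 of 8 lower (Csf2, Il1a, Il6, Il11 and Lif), where 15.6% and 17.6% of all genes were. The joint fit of both models called 1 of the 6 members that reached the filter in both tables in KrasT, Csf1, which was higher. In that fit 958 of all 12073 genes were called higher and 1097 lower in KrasT.

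Of the 10 members, 8 had promoter windows in RefSeq (GRCm38.p6), each of 300 bases, 250 before to 50 after a gene's start, and 10 windows in all. Both strands were searched for the AP-1 motif TGANTCA, which reads alike on both strands, and for the consensus motif of NF-kB by its usual letters, since cytokine genes are known targets of these factors. The windows with a match are shown without the 50 bases after the start, as the 250 bases before it, 5′ to 3′ on the strand of the gene, with the matches in capitals. Capitals mark AP-1 matches in Il1a, Il11 and Lif, an NF-kB match in Csf1, and in Il6 first an AP-1 and then an NF-kB match.
Il1a, GRCm38.p6, chr2:129309973-129310222, minus strand: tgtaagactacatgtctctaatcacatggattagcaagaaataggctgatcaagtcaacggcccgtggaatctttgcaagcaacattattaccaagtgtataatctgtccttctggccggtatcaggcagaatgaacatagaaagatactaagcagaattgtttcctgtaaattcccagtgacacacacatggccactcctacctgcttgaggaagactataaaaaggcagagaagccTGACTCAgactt
Il6, GRCm38.p6, chr5:30012864-30013113, plus strand: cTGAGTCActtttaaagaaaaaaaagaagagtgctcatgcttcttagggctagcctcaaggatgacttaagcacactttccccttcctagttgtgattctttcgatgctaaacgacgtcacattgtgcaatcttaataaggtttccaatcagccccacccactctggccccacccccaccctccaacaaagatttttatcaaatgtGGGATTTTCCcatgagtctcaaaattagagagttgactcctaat
Il11, GRCm38.p6, chr7:4778142-4778391, minus strand: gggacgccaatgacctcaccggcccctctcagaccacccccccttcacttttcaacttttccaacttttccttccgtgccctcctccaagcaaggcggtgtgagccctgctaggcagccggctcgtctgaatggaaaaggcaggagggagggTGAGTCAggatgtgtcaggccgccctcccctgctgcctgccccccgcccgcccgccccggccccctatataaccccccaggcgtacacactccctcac
Lif, GRCm38.p6, chr11:4257318-4257567, plus strand: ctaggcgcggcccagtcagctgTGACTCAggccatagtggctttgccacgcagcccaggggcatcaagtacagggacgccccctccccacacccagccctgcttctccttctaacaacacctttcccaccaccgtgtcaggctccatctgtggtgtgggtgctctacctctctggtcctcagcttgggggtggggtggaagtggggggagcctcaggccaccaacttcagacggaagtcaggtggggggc
Csf1, GRCm38.p6, chr3:107760470-107760719, minus strand: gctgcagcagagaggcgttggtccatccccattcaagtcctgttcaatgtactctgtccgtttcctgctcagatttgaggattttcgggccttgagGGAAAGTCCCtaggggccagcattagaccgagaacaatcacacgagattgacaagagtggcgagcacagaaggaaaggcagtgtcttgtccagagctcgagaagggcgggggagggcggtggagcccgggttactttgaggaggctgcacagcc
The AP-1 motif began 12 bases before the start in Il1a, 249 in Il6, 98 in the second of 2 windows of Il11 and 228 in Lif. It was found in 4 of the 10 windows, and in 7.81% of all 32851 windows of this length. The 4 genes that held it (Il1a, Il6, Il11 and Lif) had negative changes in KrasT, as did 6 of the 8 members with a window, Csf2 and Il1b without the motif among them. The NF-kB motif began 154 bases before the start in Csf1, on the opposite strand, and 44 before it in Il6, and it was found in 5.8% of all windows. A match is a run of letters and does not show that a factor binds there, and no match says only that these letters are not in the window.

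**Figure D2:**
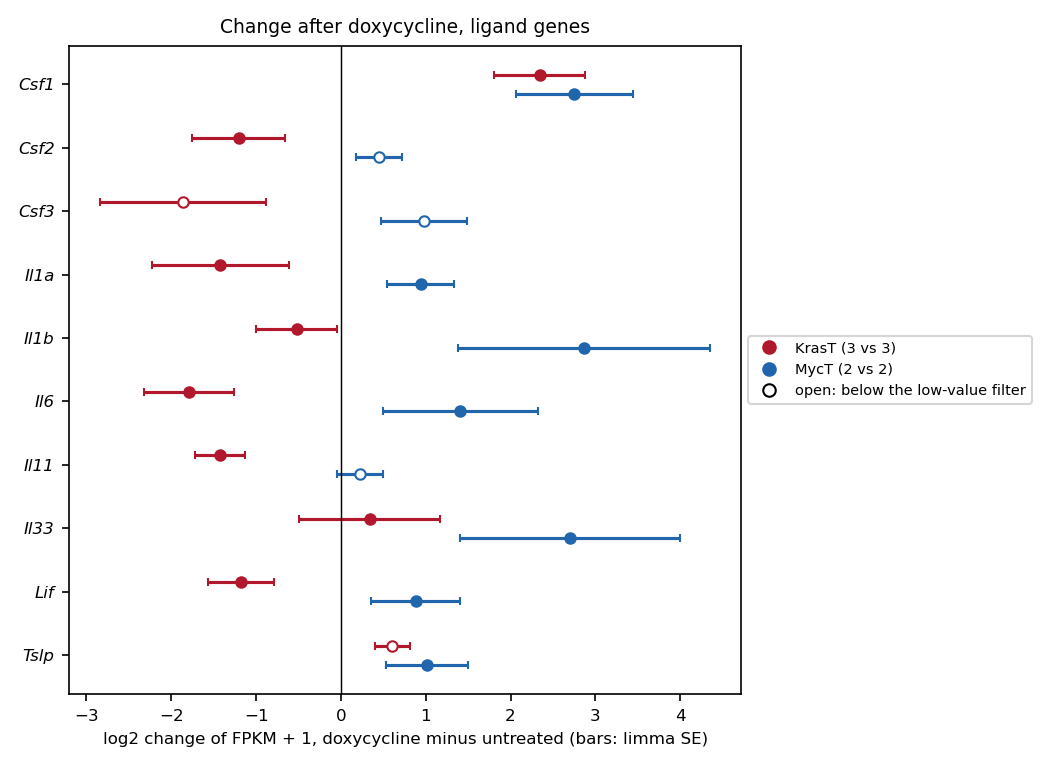
Change of each of the 10 genes after doxycycline, as the difference of mean log2(FPKM + 1), doxycycline minus untreated, in KrasT (red, 3 against 3) and MycT (blue, 2 against 2). Bars are the limma SE, and open points are genes below the filter on low values. Of the 10 genes, 7 had negative changes in KrasT, and all 10 had positive changes in MycT.

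The receptor genes that passed in KrasT were all higher after doxycycline. Of 14 receptor genes, all of which reached the filter, 6 were called higher after doxycycline and 0 lower (7 and 0 at an unadjusted limma p under 0.05), with a median log2 change of 1.34 against -0.10 over all genes. Such an unadjusted p was reached by 4311 of all 12696 genes, both directions together. Csf1r, the M-CSF receptor of macrophages, was 93.2, 26.6 and 57.4 FPKM in doxycycline tumours, against 13.3, 4.21 and 4.94 FPKM in untreated tumours (log2 change 2.81 ± 0.56 SE, limma adjusted p = 0.0233). It moved the same way as its ligand, and in both genes doxycycline replicate 1 was the highest library. Il6st, the shared chain gp130, was 45.8, 27.7 and 29.2 FPKM in doxycycline tumours, against 10.6, 7.80 and 11.5 FPKM in untreated tumours (log2 change 1.66 ± 0.29 SE, limma adjusted p = 0.0176). Il11ra1, the receptor of interleukin 11, was 30.8, 49.2 and 51.3 FPKM in doxycycline tumours, against 17.4, 12.6 and 8.59 FPKM in untreated tumours (log2 change 1.71 ± 0.34 SE, limma adjusted p = 0.0231). These receptors were higher where the ligands Il6, Il11 and Lif had lower values.

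Csf3r, the G-CSF receptor of neutrophils, had a log2 change of 2.09 (limma adjusted p = 0.0229), Csf2ra, the GM-CSF receptor alpha chain, of 2.17 (adjusted p = 0.0321), and Il1rl1, the interleukin 33 receptor, of 1.24 (adjusted p = 0.0200). The others were not called: Csf2rb had a log2 change of 1.17, Csf2rb2 of 1.43, Il1r1 of 0.80, Il1rap of -0.09, Il6ra of 0.83, Lifr of 0.60, Crlf2 of 0.22 and Il7r of 2.12. In Csf2rb, Csf2rb2, Il6ra and Il7r doxycycline replicate 1 was far above replicates 2 and 3 (36.8 against 5.49 and 7.37 FPKM in Csf2rb). Leaving out a library brought Csf2rb as low as 0.39 and Il6ra 0.18, and could turn the sign of Crlf2 (-0.26) and Il1rap (0.14). Csf2rb and Csf2rb2, and Il11ra1 and its copies, have near-identical sequences, so their values are uncertain. The 6 receptor calls depended on single libraries: each of them was kept without untreated replicate 1 and lost without doxycycline replicate 3 (limma adjusted p = 0.0772 to 0.104) and without untreated replicates 2 or 3 (0.0621 to 0.111). Without doxycycline replicate 1, Csf1r and Csf2ra were lost (adjusted p = 0.0602 and 0.0701), and without doxycycline replicate 2, Csf2ra, Il1rl1 and Il11ra1 (0.0510, 0.0587 and 0.0724). Under quantile normalization Csf3r and Il1rl1 were lost (0.0647 and 0.0985), and with no filter on low values Csf2ra (0.0502).

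**Figure D3:**
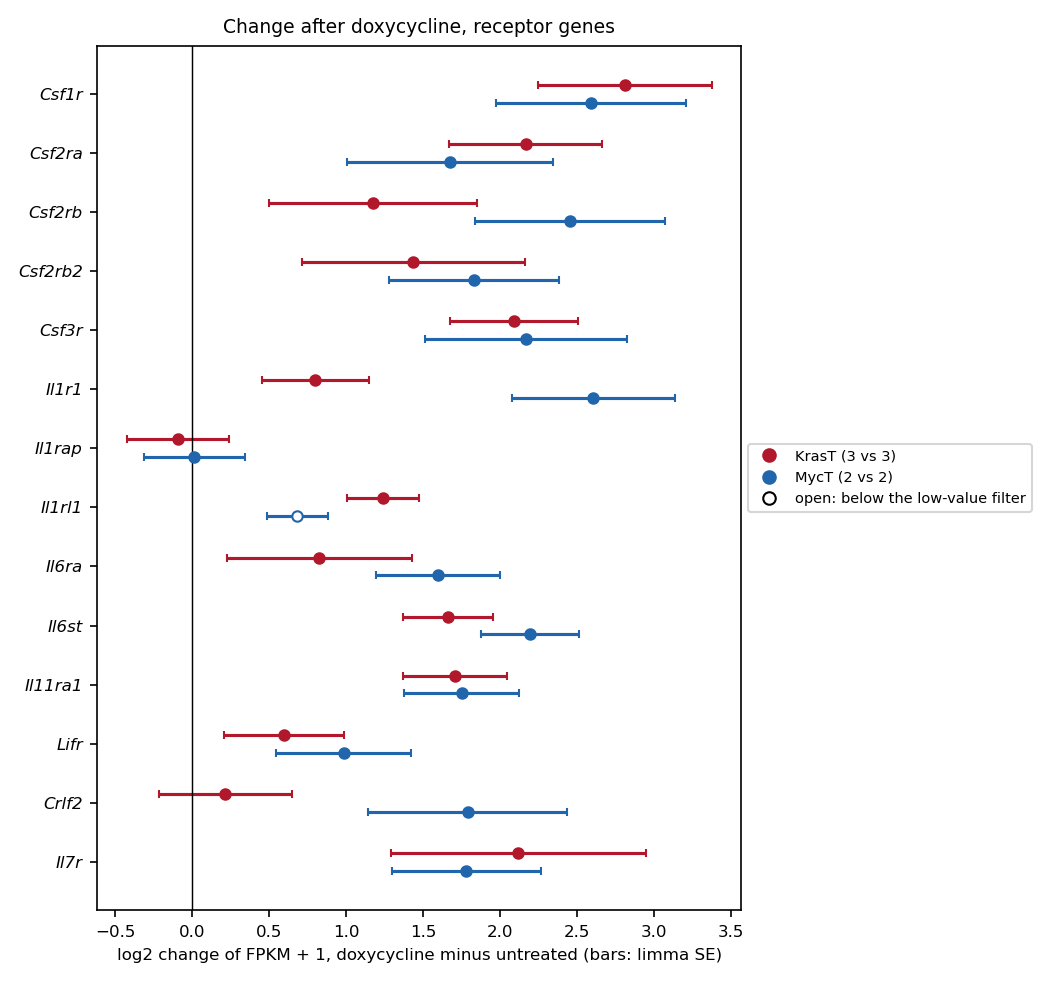
Change of the 14 receptor genes after doxycycline, as the difference of mean log2(FPKM + 1), doxycycline minus untreated, in KrasT (red) and MycT (blue), with the limma SE as bars and an open point for a gene below the filter on low values. Csf1r has changes of 2.81 in KrasT and 2.59 in MycT, while Il1rap, the shared co-receptor of the interleukin 1 family, stays near 0 in both.

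Among 10 inhibitors of these pathways, 0 were called higher and 1 lower in KrasT, and at an unadjusted limma p under 0.05 the counts were the same. That was Il1r2, the decoy receptor that binds interleukin 1 without signalling, at 5.32, 1.33 and 0.912 FPKM in doxycycline tumours, against 16.0, 10.1 and 25.3 FPKM in untreated tumours (log2 change -2.49 ± 0.54 SE, limma adjusted p = 0.0280). The Il1r2 call was lost without doxycycline replicates 2 or 3 (adjusted p = 0.0821 and 0.109) and without untreated replicates 2 or 3 (0.0621 and 0.10). Il1rn, the interleukin 1 receptor antagonist, was 48.3 FPKM in doxycycline replicate 1 and 4.37 and 4.32 FPKM in replicates 2 and 3, against 4.64, 16.9 and 6.15 FPKM in untreated tumours (limma adjusted p = 0.840). Socs3, the feedback inhibitor of gp130 signalling, was 14.4, 21.6 and 15.7 FPKM after doxycycline, against 12.2, 54.9 and 51.7 FPKM without it (limma adjusted p = 0.305). Its pattern over the untreated tumours, low in replicate 1 and high in replicates 2 and 3, is that of Csf2, Il1a and Lif.

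Of 6 tested genes that process or release interleukin 1, 1 was called higher in KrasT, the inflammasome adaptor Pycard (log2 change 2.35, limma adjusted p = 0.0162), and 1 lower, the protease subunit Capn2 (-1.04, adjusted p = 0.0485). Of 28 other cytokine genes, 12 reached the filter in KrasT, and 1 was called higher, Il16, a chemoattractant of CD4-bearing cells (log2 change 1.75, limma adjusted p = 0.0170). Il3 and Epo were listed at 0 in all 10 libraries. Of 14 tested transcription factor genes, Jun (1.75, limma adjusted p = 0.0199) and Stat5b (1.01, adjusted p = 0.0408) were called higher and Fosl1, an AP-1 subunit, lower (-3.05, adjusted p = 0.0297). Fosl1 was 0.373, 0.0290 and 0.0290 FPKM in doxycycline tumours, against 2.24, 22.6 and 9.73 FPKM in untreated tumours. Without doxycycline replicate 3 none of these 6 calls held (limma adjusted p = 0.0794 to 0.179), nor without untreated replicate 2 (0.0605 to 0.113) or untreated replicate 3 (0.0648 to 0.119). Without doxycycline replicate 1, Stat5b and Fosl1 were lost (0.105 and 0.0678), and without doxycycline replicate 2, Capn2, Stat5b and Fosl1 (0.148, 0.129 and 0.0811). With no filter on low values the same 3 genes did not pass (0.0541, 0.0558 and 0.0509), under quantile normalization Capn2 and Stat5b did not (0.241 and 0.0623), and Capn2 did not under median-ratio scaling (0.0778) or with the spread fitted without a trend (0.0557).

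Markers of other cells differed alongside these genes in KrasT. The summed FPKM of 10 macrophage markers, among them Csf1r, was 1856 to 6772 in doxycycline tumours and 312 to 1572 in untreated tumours, and 2 of 10 were called higher. As for Csf1, doxycycline replicate 1 was the highest doxycycline library and untreated replicate 1 the highest untreated library in that sum. That the groups did not overlap in it rested on Lyz2. Lyz2 was 1070 FPKM in doxycycline replicate 2 and 728 FPKM in untreated replicate 1, where C1qa was 263 and 394 FPKM. Cd68, Cd14, C1qa, C1qb, C1qc, Mrc1 and Cd163 overlapped between the groups. Of 8 fibroblast markers 6 were called higher, with sums of 3061 to 6695 FPKM after doxycycline against 246 to 437 FPKM without it, and of 6 endothelial markers 5, with sums of 66.1 to 144 against 13.5 to 27.3 FPKM. Of 6 mast cell markers 5 were called higher (73.2 to 142 against 1.08 to 7.77 FPKM), and Cma1 and Fcer1a were listed at 0 in at least 1 untreated library. Of 6 neutrophil markers 5 were tested and 2 called higher, S100a9 and Csf3r, Csf3r being also counted among the receptors, with sums of 132 to 222 against 21.5 to 83.5 FPKM, while Retnlg (-0.47) and Mmp9 (-1.11) had negative changes that did not pass. Of 8 epithelial and pancreatic tumour markers 2 were called lower, Krt8 and Krt18, with sums of 276 to 1656 FPKM after doxycycline against 2378 to 18051 FPKM without it. In untreated replicate 1 Krt8 and Krt18 carried that sum (680 and 1497 FPKM), while Epcam, Cdh1 and Krt7 were lower there (7.22, 4.67 and 7.10 FPKM) than in any doxycycline tumour (26.1 to 215, 10.9 to 96.8 and 16.8 to 144 FPKM). The changes of Epcam (-0.32) and Cdh1 (-0.84) did not pass, and they turned sign without doxycycline replicate 1 (0.58 and 0.16), untreated replicate 2 (0.52 and 0.23) or untreated replicate 3 (0.77 and 0.05), as did that of Epcam under quantile normalization (0.13). Over the 6 KrasT fits that each left out a library, the call of S100a9 was kept in 0, of Krt8 in 1 and of Krt18 in 2. Those of Col1a1 and Pecam1 were kept in 3, and those of Dcn, Cpa3, Tpsb2 and Cma1 in all 6. The part of all these marker lists in the changes of Csf1, Il11 and the receptors was not tested. Adipocyte markers summed to 1511 FPKM in doxycycline replicate 1, where Il33 and Il1rn were also highest, and to 62.1 and 72.7 FPKM in replicates 2 and 3, against 1.29 to 3.33 FPKM in untreated tumours.

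**Figure D4:**
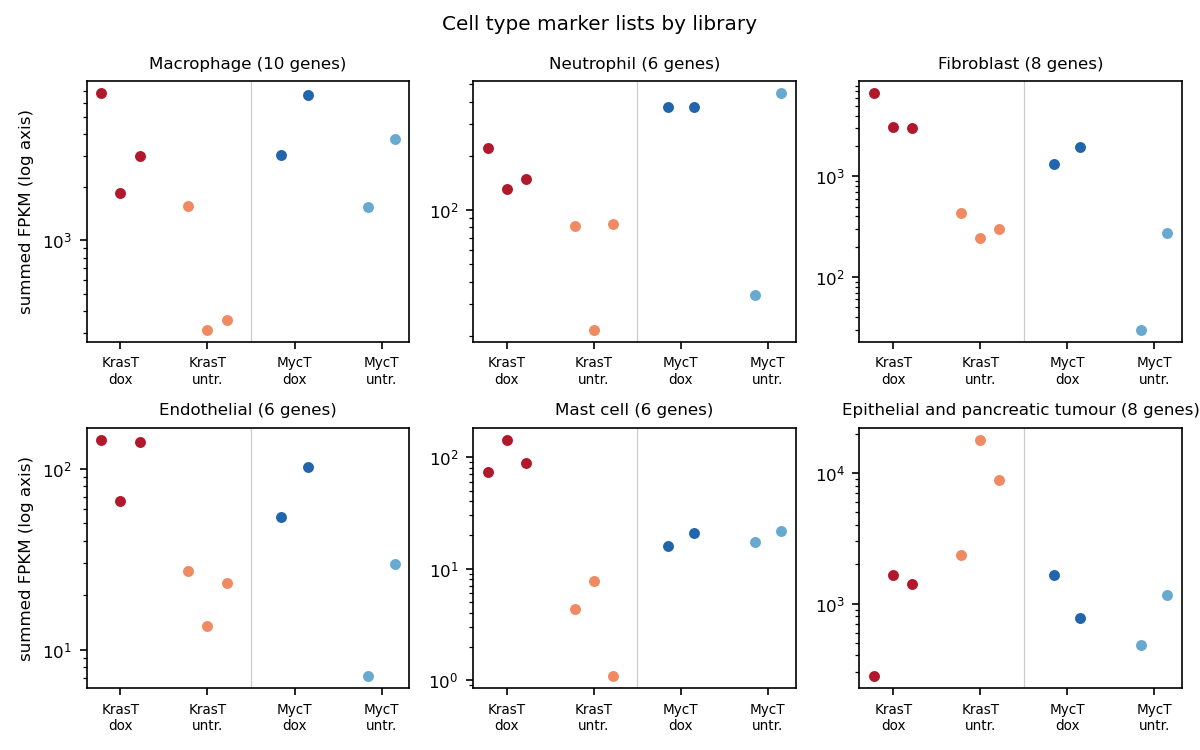
Summed FPKM of marker genes of 6 cell types in each library, on log axes, with 1 point per tumour and the doxycycline tumours of each model left of the untreated ones. In KrasT the macrophage, fibroblast, endothelial, mast cell and neutrophil sums are higher in all 3 doxycycline tumours than in any untreated tumour, and the epithelial and pancreatic tumour sum is lower, carried in untreated replicate 1 by Krt8 and Krt18. The separation of the KrasT macrophage sum rests on Lyz2, while Cd68, Cd14, C1qa, C1qb, C1qc, Mrc1 and Cd163 overlap between the groups.

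The second comparison asks the same of MycT tumours. All 10 members had positive changes there, and Csf1 had the change with the smallest limma adjusted p of the 7 that reached the filter. By limma 0 of these 7 passed with 2 against 2 libraries, where 0.0390% of all 12834 genes did. Csf1 alone had an unadjusted limma p under 0.05 (0.0118), as 4284 of all 12834 genes had. The size of the changes rested on untreated replicate 2, which was the lowest of the 4 libraries in all 10 members.

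Csf1 was 13.2 and 19.5 FPKM in the 2 MycT doxycycline tumours, against 0.351 FPKM in untreated replicate 2 and 3.75 FPKM in the unnumbered untreated tumour. Both doxycycline tumours were above both untreated tumours, which differed widely from each other. The means were 16.4 ± 4.49 FPKM after doxycycline and 2.05 ± 2.40 FPKM without it (SD, n = 2 each). The log2 change was 2.75 ± 0.69 (SE, limma adjusted p = 0.0831), and 1.85 without untreated replicate 2. In the fit of both models with a shared spread it passed (limma adjusted p = 0.0306), as 1 of the 6 members tested there in the higher direction and 0 in the lower, where 8.11% and 12.3% of all genes were called.

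Il1b was 55.6 and 33.1 FPKM in MycT doxycycline tumours, against 0.301 and 26.8 FPKM in untreated tumours, so doxycycline replicate 2 stood only a little above the unnumbered tumour. Its log2 change of 2.87 ± 1.49 (SE, limma adjusted p = 0.246) was 0.66 without untreated replicate 2 and 5.08 without the unnumbered tumour. Il33 was 26.8 and 38.5 FPKM in MycT doxycycline tumours, against 0.346 and 18.3 FPKM in untreated tumours, and its log2 change of 2.70 ± 1.30 (SE, limma adjusted p = 0.218) was 0.78 without untreated replicate 2. Both genes repeat the pattern of the library: untreated replicate 2 was near 0 and the unnumbered tumour was nearer the doxycycline tumours. The exact permutation p was 0.333 for each gene whose groups did not overlap, the smallest that 2 against 2 libraries can give.

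Il6 was 1.18 and 9.13 FPKM in MycT doxycycline tumours, against 0.0767 and 1.90 FPKM in untreated tumours. The groups overlapped, and the mean rested on doxycycline replicate 2 (log2 change 1.41 ± 0.92 SE, limma adjusted p = 0.337). Lif was 2.47 and 1.73 FPKM in MycT doxycycline tumours, against 0.0880 and 1.56 FPKM in untreated tumours (log2 change 0.88 ± 0.52 SE, limma adjusted p = 0.298). Il11 was 0.456 and 0.997 FPKM in MycT doxycycline tumours, against 0.246 and 0.709 FPKM in untreated tumours, at an estimated 7 to 19 fragments in all 4 libraries. Il11 thus stayed under 1 FPKM in all MycT tumours and overlapped between the groups (log2 change without the filter 0.22 ± 0.27 SE, limma adjusted p = 0.633).

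Il1a was 2.51 and 4.34 FPKM in MycT doxycycline tumours, against 0.988 and 1.56 FPKM in untreated tumours (log2 change 0.94 ± 0.39 SE, limma adjusted p = 0.175). Tslp was 2.998 and 1.17 FPKM in MycT doxycycline tumours, against 0.145 and 0.864 FPKM in untreated tumours (log2 change 1.01 ± 0.48 SE, limma adjusted p = 0.218). In neither did the groups overlap. Csf2 was 0.867 and 0.526 FPKM in MycT doxycycline tumours, against 0, as listed, and 0.530 FPKM in untreated tumours, and the unnumbered untreated tumour lay between the doxycycline tumours. Csf3 was 2.68 and 0.469 FPKM in MycT doxycycline tumours, against 0.0582 and 0.315 FPKM in untreated tumours, and doxycycline replicate 1 stood above the rest. Neither reached the filter of 1 FPKM in at least 2 libraries, and without it their limma adjusted p was 0.381 and 0.320.

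Of the 10 members, 7 had MycT doxycycline tumours above both untreated tumours. Among the 7 that reached the filter these were 6, all but Il6, and 0 had them below, where the groups of all genes did not overlap in 31.9% on the higher side and 32.8% on the lower side. The median log2 change of the 7 was 1.41, against 0.04 over all genes. Of 13 tested receptor genes, all 13 had positive changes with a median of 1.79, and 0 were called by limma. At an unadjusted limma p under 0.05 there were 10, where 4284 of all 12834 genes reached it. In the fit of both models 5 were called higher: Il6st (log2 change 2.19, limma adjusted p = 0.00629), Il1r1, the signalling receptor of interleukin 1 (2.60, 0.00981), Il11ra1 (1.75, 0.0193), Csf1r (2.59, 0.0354) and Csf3r (2.17, 0.0367). Il6st was 24.8 and 27.1 FPKM in MycT doxycycline tumours, against 4.48 and 5.34 FPKM in untreated tumours, so here untreated replicate 2 was close to the unnumbered tumour.

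In the same fit of both models, MycT had 1 of 10 inhibitors called higher, Zfp36, which codes for an RNA-binding protein that speeds the decay of cytokine mRNA (log2 change 2.04, limma adjusted p = 0.0440). Of 6 genes that process or release interleukin 1, 2 were called higher: Capn1 (2.12, adjusted p = 0.0375) and Gsdmd, the pore that lets interleukin 1 beta out of cells (2.67, 0.0388). Of 12 other cytokine genes 4 were called higher, among them Flt3l, a growth factor of dendritic cells (1.69, adjusted p = 0.0185), Il34, the other ligand of the M-CSF receptor (2.04, 0.0202), and Il16 (1.71, 0.0270). Of 13 transcription factor genes 4 were called higher, among them Nfkb2 (2.05, adjusted p = 0.0316), Stat3 (1.38, 0.0453) and Relb (1.91, 0.0475). None of the members but Csf1 passed in that fit, and in the fit of MycT alone none of these genes did. Of the marker sums, those of fibroblast, endothelial, T and NK cell and adipocyte genes did not overlap between the MycT groups and those of macrophage, neutrophil, mast cell and epithelial genes did, and their part in the members' changes was not tested. Fibroblast markers summed to 1339 and 1951 FPKM after doxycycline, against 29.8 and 276 FPKM without it, with 6 of 8 called higher in the fit of both models. Endothelial markers summed to 53.8 and 102 FPKM after doxycycline, against 7.13 and 29.7 FPKM without it, with 5 of 6 called higher, and T and NK cell markers to 34.0 and 16.2 FPKM, against 0.112 and 2.59 FPKM, with 2 of 2 tested called higher. Macrophage markers summed to 3024 and 6653 FPKM in doxycycline tumours, against 1552 and 3744 FPKM in untreated tumours, with 2 of 9 called higher. The overlap of these sums rested on Lyz2, at 1863 FPKM in doxycycline replicate 1 and 2899 FPKM in the unnumbered tumour. Csf1r, Cd68, Emr1, Cd14, C1qa, C1qb, C1qc and Mrc1 were each higher in both doxycycline tumours than in either untreated tumour, as 31.9% of all genes were, while Cd163 overlapped. Neutrophil markers summed to 375 and 372 FPKM after doxycycline, against 33.6 FPKM in untreated replicate 2 and 446 FPKM in the unnumbered tumour. All 10 members were likewise lower in untreated replicate 2 than in the unnumbered tumour. S100a8 and S100a9 carried the sum of the unnumbered tumour (204 and 233 FPKM), while Csf3r, Cxcr2, Retnlg and Mmp9 were lower there than in both doxycycline tumours. Mast cell marker sums overlapped, at 16.0 and 20.9 FPKM after doxycycline against 17.4 and 21.6 FPKM without it. In that list Kit, which other cells also express, was 9.24 and 5.63 FPKM in doxycycline tumours against 17.3 and 21.5 FPKM in untreated tumours and was called lower in the fit of both models (limma adjusted p = 0.0327), while Cma1 was called higher (0.00832), and Cpa3, Mcpt4, Tpsb2 and Fcer1a were listed at 0 in both untreated tumours.

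The third comparison asks whether the change differed between the models. Csf1 had similar changes in both, 2.34 in KrasT and 2.75 in MycT, a difference of -0.41 ± 0.94 (SE, limma adjusted p = 0.847), whose sign turned without untreated KrasT replicate 1 (0.08) or untreated MycT replicate 2 (0.50). For Il6, Il11 and Lif, the gp130 cytokines among the members, the changes were negative in KrasT and positive in MycT. The MycT change of Il11 was small (0.22) and turned to -0.15 under quantile normalization. The difference was -3.20 ± 1.09 (SE, limma adjusted p = 0.159) for Il6 and -2.06 ± 0.67 (SE, limma adjusted p = 0.143) for Lif, and for Il11, fitted without the filter, -1.65 ± 0.43 (SE, limma adjusted p = 0.116). For Il1a it was -2.36 (limma adjusted p = 0.286), for Il1b -3.39 (0.253) and for Il33 -2.36 (0.459).

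Of the 6 members tested for a difference 0 passed by limma, where 0.240% of all 12073 genes did. At an unadjusted limma p under 0.05 there were 2, Il6 (0.0165) and Lif (0.0129), where 2406 of all 12073 genes reached it. Opposite signs were thus not shown to be a difference between the models. Without untreated KrasT replicate 1 the differences of Il1a (-3.22, limma adjusted p = 0.0308) and Lif (-2.37, 0.0437) passed, and that of Csf2 without the filter (-2.26, 0.0446). Without the unnumbered untreated MycT tumour, which leaves a single untreated MycT library assumed to vary like the other groups, that of Il1b passed (-5.60, limma adjusted p = 0.0206).

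Levels per gene length were set side by side without a test, since the tables of the models may have been normalized separately. In KrasT doxycycline tumours Il33 was first at a mean of 52.8 FPKM, then Csf1 at 16.1 and Il1b at 9.84 FPKM, and all other members were under 2 FPKM. In untreated KrasT tumours Il33 was first at 46.0 FPKM, then Il1b at 16.4 and Il1a at 7.68 FPKM, and Csf1 was ninth at 2.52 FPKM. Neighbours in the untreated order overlapped in range down to Csf1, and only Tslp, the last, lay below its neighbour in all 3 tumours. After doxycycline the ranges of Il33, Csf1 and Il1b overlapped from neighbour to neighbour, though Csf1 lay below Il33 in all 3 tumours. The lowest Il1b value lay above the highest Lif value. In MycT doxycycline tumours Il1b was first at 44.3 FPKM, then Il33 at 32.7 and Csf1 at 16.4 FPKM, and Csf1 lay below Il33 in both tumours. In untreated MycT tumours the first 3 were the same genes, at 13.6, 9.33 and 2.05 FPKM, with a span of 0.301 to 26.8 FPKM for Il1b alone.

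**Figure D5:**
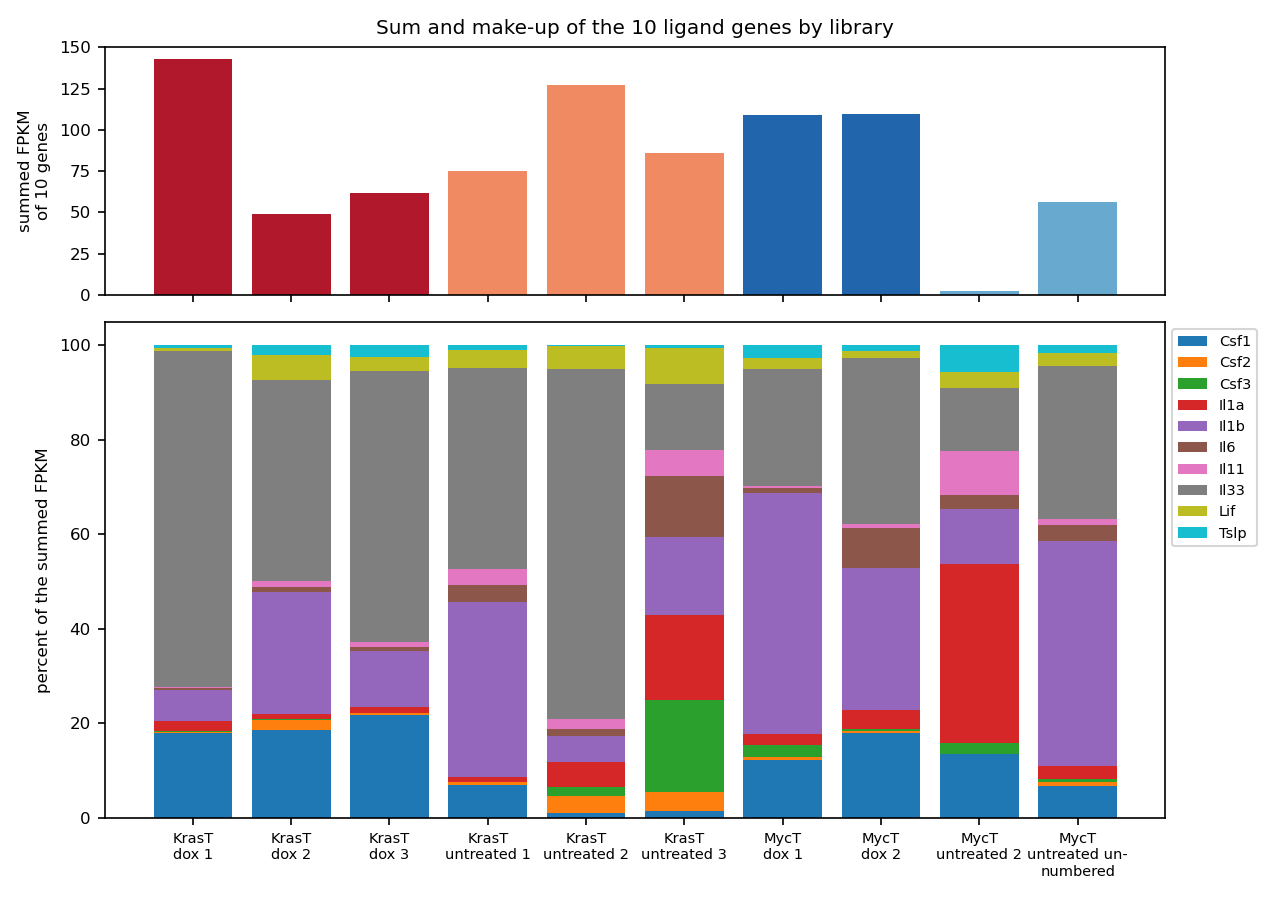
Summed FPKM of the 10 genes in each library (top) and the percent of that sum taken by each gene (bottom), with the doxycycline tumours of each model left of its untreated tumours. Csf1 takes 17.99% to 21.7% of the sum in KrasT doxycycline tumours and 0.936% to 6.90% in untreated KrasT tumours. The sum is 2.60 FPKM in untreated MycT replicate 2.

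Shares of single members separated the KrasT groups where the sum did not. The 10 members summed to 143, 49.1 and 62.0 FPKM in KrasT doxycycline tumours, against 74.9, 127 and 85.9 FPKM in untreated tumours, so the groups overlapped. Csf1 took 17.99%, 18.5% and 21.7% of it after doxycycline, against 6.90%, 0.936% and 1.41% without it. Il33 took 71.2% of the sum in KrasT doxycycline replicate 1 and 74.1% in untreated replicate 2, but 13.9% in untreated replicate 3, where Csf3, Il1a and Il6 took 19.4%, 18.1% and 13.0%. In MycT the sum was 109 and 110 FPKM in doxycycline tumours, against 2.60 and 56.3 FPKM in untreated tumours, and Il1b took 51.1% and 30.2% of it after doxycycline.

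Across the 10 libraries the members fell into different company, given as Pearson r of log2(FPKM + 1) with no test, since libraries share model, treatment and depth. The genes most like Csf1 were Unc93b1 (r = 0.989), Ebi3 (0.984) and Fli1 (0.983), and those most like Il1b were Klra2 (0.921), Dock11 (0.916) and H2-T9 (0.908). The genes most like Lif were Rin1 (r = 0.987), Trim16 (0.969) and Slc25a24 (0.968), and those most like Il33 were Sema7a (0.949), Stat6 (0.925) and Ccnd2 (0.920). Il1a was most like Arrdc4 (r = 0.925), Plk3 (0.917) and Bak1 (0.913). Il6 was most like Wdr92 (r = 0.940), Rgs16 (0.795) and Pilrb1 (0.778). Among pairs of members the closest were Csf2 and Lif (r = 0.899), Csf3 and Il1a (0.877) and Il11 and Lif (0.847), while Csf1 ran against Il11 (r = -0.44) and Csf2 (-0.43). Csf2, Il1a, Il11 and Lif were highest in untreated KrasT replicates 2 and 3, and Csf3 in replicate 3.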

How the data were processed

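Total RNA of flash-frozen tumour tissue was sequenced with a TruSeq kit on a HiSeq2000, per the labels. The authors deposited FPKM in a table for each of the 2 models. Per the submitters' processing notes cutadapt, TopHat and the mm9 build were used. The sources used here do not give the quantifier, its gene models or the use of strand. Of 23951 rows in each table, 27 with symbols turned into dates were left out. The name of 1 untreated MycT column matches no label by number, so it was used as an untreated replicate without a number.

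Changes were tested on log2(FPKM + 1) with limma (version 3.58.1, R 4.3.3; two-sided moderated test with an intensity trend, all genes with at least 1 FPKM in at least 3 KrasT or 2 MycT libraries), and the difference as the interaction over both tables. Nothing says that replicates came from separate tumour lines, so p-values measure the spread between these libraries. The 10 members were named without a rule on values, but members and lists were chosen with earlier results of these data known. All members and all receptors are named, and of each other list up to 3 called genes per direction by p, with Il1rn and Socs3. The steps were tested on simulated data.

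Depth was estimated from the spacing of low FPKM values times exonic length, with lengths of GRCm38, so fragment numbers are approximate. Alternatives were a pseudocount of 0.1, no filter, median-ratio scaling, quantile normalization, spread without a trend, a joint fit and leaving out each library. Figures were drawn with matplotlib 3.10.9.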

Additional observations from a re-analysis of the deposited data

How the results depend on the processing

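The number of genes called moved with the processing far more than the members' directions. In KrasT it was 2121, against 1081 under quantile normalization and 113 to 4223 when a library was left out: 1004, 908 and 120 without doxycycline replicates 1, 2 and 3, and 4223, 341 and 113 without untreated replicates 1, 2 and 3. In MycT it was 5 (4284 at an unadjusted p under 0.05), against 2463 in the joint fit, 0 with no filter and 0 to 0 without any library. For the difference it was 29, against 18 with a pseudocount of 0.1, 92 with no filter and 0 to 1522 without a library, 1522 being without untreated KrasT replicate 1 and 533 without the unnumbered MycT library.

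Left out 1 by 1, libraries gave Il33 in KrasT a change of -0.37 (without untreated replicate 3) to 1.07, and -0.28 without doxycycline replicate 1. Il11 in MycT, fitted without the filter, turned to -0.15 under quantile normalization and to -0.0032 without doxycycline replicate 2 or untreated replicate 2. The difference between models ran for Csf1 from -1.32 to 0.50 (without untreated MycT replicate 2), with 0.08 without untreated KrasT replicate 1, and for Tslp from -0.85 to 0.037 (without MycT doxycycline replicate 1). The cause was not tested. Fits that leave a single untreated or doxycycline MycT library assume that it varies like the other groups. Members under 1 FPKM rest on few fragments, and 2 against 2 libraries gave MycT little power. The labels give no replicate numbers that pair samples.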
